A study of Homo sapiens
Mus musculus with 16 samples.

Results

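Levels of 10 inflammatory cytokine genes were read from the human side of a xenograft, where the reads assigned to human genes stand for the tumour cells and those assigned to mouse genes for the host. They were named by Ensembl ID and by no cutoff on their values, though with earlier results of these data known. The 10 are CXCL8, CXCL1, CXCL2, CXCL3, IL6, IL1A, IL1B, LIF, CSF2 and IL11. All 10 are among the 58051 gene IDs of the human count matrix, and all 10 passed the filter on low counts, which left 18131 genes to test. The tumours grew from MDA-MB-231, a human triple-negative breast cancer cell line, injected under the skin at the mammary fat pads of nude mice of the Balb/c strain, and they were taken out on day 50. Groups of 4 mice each were compared. The combination group received nab-paclitaxel at 30 mg/kg on days 15, 22 and 29 and phenelzine at 40 mg/kg daily from day 15. The nab-paclitaxel group received the taxane alone, the phenelzine group phenelzine alone, and the vehicle group neither drug. All injections were intraperitoneal. Nab-paclitaxel is paclitaxel bound to albumin and stabilises microtubules, and phenelzine is an irreversible inhibitor of monoamine oxidases that also acts on the histone demethylase LSD1. Every tumour comes from the same cell line, and nude mice lack a thymus and mature T cells but keep macrophages and neutrophils.

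Most of these cytokines, though not all, are among the classical outputs of NF-κB. This transcription factor carries signals from the receptors of interleukin 1 and tumour necrosis factor. MDA-MB-231 cells are known to secrete several of the cytokines without outside stimulation. CXCL8 and its relatives CXCL1, CXCL2 and CXCL3 draw neutrophils through the receptors CXCR1 and CXCR2. IL6, LIF and IL11 signal through the shared receptor chain gp130 to STAT3, IL1A and IL1B act on the interleukin 1 receptor and feed back on NF-κB, and CSF2 drives the growth and activation of myeloid cells. Mice have no CXCL8 gene.

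The 4 chemokine genes lie together on chromosome 4. In RefSeq's GRCh38.p14, the assembly that hg38 represents, CXCL8 (ENSG00000169429) spans 73740569 to 73743716, CXCL1 (ENSG00000163739) 73869393 to 73871308, CXCL3 (ENSG00000163734) 74036589 to 74038689 and CXCL2 (ENSG00000081041) 74097040 to 74099195. The cluster from CXCL8 to CXCL2 covers 358.6 kb and holds 9 protein-coding genes. CXCL1, CXCL2 and CXCL3 are close copies of one another, so that the counting may have divided reads between them, and their separate values are uncertain to that extent. IL1A (ENSG00000115008; 112773925 to 112784493) and IL1B (ENSG00000125538; 112829751 to 112836779) are neighbours on chromosome 2, 45.3 kb apart. IL6 (ENSG00000136244) lies on chromosome 7 at 22727200 to 22731998 and is overlapped by IL6-AS1. LIF (ENSG00000128342) lies on chromosome 22 at 30240453 to 30246759 and is overlapped by LIF-AS1 and LIF-AS2. Whether strand was used in counting is not given in the sources used here, so reads of IL6 and LIF cannot be told apart from those of these antisense genes. CSF2 (ENSG00000164400) lies on chromosome 5 at 132073789 to 132076170 and IL11 (ENSG00000095752) on chromosome 19 at 55364382 to 55370463.

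Each tumour gave 1 library, with 11.1 to 34.5 M (mega) counts on human genes and 3.46 to 27.4 M on mouse genes. Levels are in CPM, human counts divided by the library's human total and scaled by TMM factors, which compare libraries for a given gene but not genes with each other, since no transcript lengths were at hand. By all human genes, 4 of the 8 libraries with nab-paclitaxel stood apart on the first principal component, which held 48.7% of the variance. Combination 1 and 3 and nab-paclitaxel 1 and 4 scored 117.2, 120.4, 125.0 and 72.7 there, against 5.37 or less in the other 12. The mouse share of all counts, a measure of host RNA in the library, was 71.2%, 55.9%, 59.7% and 41.9% in these 4 libraries and 9.25% to 47.4% in the other 12. It was 42.4% ± 19.7 with nab-paclitaxel and 16.8% ± 9.04 without (SD, n = 8 each), a difference of 25.6 points (exact permutation test, two-sided, p = 0.00622). The part of the mouse share in the results below was tested only as a covariate.

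In edgeR no member passed the threshold in any comparison of 2 groups. DESeq2 called IL1B for nab-paclitaxel against vehicle, among 1341 genes in all. Several of the cytokine genes ranged widely among tumours that had received nab-paclitaxel, a spread given here as values with no test. Averaged over tumours with and without phenelzine, IL1B alone passed in edgeR, as did 17.3% of all genes. It fell with nab-paclitaxel, and the call ended in 13 of 16 fits with 1 library left out. DESeq2 called IL1B and CXCL1, among 4314 genes in all. CXCL8, CXCL1 and IL6 had their 4 highest values of all 16 libraries in combination 1 and 3 and nab-paclitaxel 1 and 4, and IL11 had its 4 lowest values there. The same pattern was common among all genes: 12.4% of the 18131 had their 4 highest values in these libraries and 11.4% their 4 lowest. The component that set the libraries apart was computed from all human genes, these 10 included, so the pattern is a description with no test.

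CXCL8, interleukin 8, stood at 194, 18.0, 142 and 23.3 CPM in combination tumours 1 to 4 and at 122, 35.1, 23.6 and 59.7 CPM in nab-paclitaxel tumours. It stood at 39.4, 27.1, 32.0 and 57.4 CPM in phenelzine tumours and at 44.1, 43.3, 49.0 and 41.6 CPM in vehicle tumours. The vehicle tumours were thus close together, with a highest value 1.18 times the lowest, while in the combination group this ratio was 10.8 and in the nab-paclitaxel group 5.17. In both groups with nab-paclitaxel 2 tumours lay above every vehicle tumour and the other 2 below every vehicle tumour. Phenelzine tumours also lay on both sides, with phenelzine 4 above every vehicle tumour and phenelzine 1, 2 and 3 below. The counts behind these values ran from 367 to 2529 reads, so that counting error was small beside the spread.

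CXCL1, a neutrophil attractant of the GRO group, had the same 4 tumours on top. It had 77.0, 17.2, 109 and 24.1 CPM in combination tumours 1 to 4, and 112.9, 35.3, 27.0 and 59.3 CPM in nab-paclitaxel tumours. It had 31.9, 19.1, 21.1 and 40.7 CPM in phenelzine tumours and 25.9, 38.0, 21.7 and 43.5 CPM in vehicle tumours. The 4 highest values were again those of combination 1 and 3 and nab-paclitaxel 1 and 4, but here the other 4 tumours with nab-paclitaxel overlapped the vehicle range.

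CXCL2 reached 20.5 and 20.6 CPM in combination 1 and 3 and 19.9 CPM in nab-paclitaxel 1, and lay between 5.70 and 14.2 CPM in the other 13 libraries. CXCL3 was highest in nab-paclitaxel 1 and combination 3, at 10.5 and 10.4 CPM, but combination 1 had only 4.85 CPM, below all 4 vehicle tumours (5.13 to 6.16 CPM). CXCL3 therefore did not follow CXCL8 in the library where CXCL8 was highest. CXCL1 took 58.3% to 77.9% of the summed counts of CXCL1, CXCL2 and CXCL3 in combination tumours and 73.9% to 78.8% in nab-paclitaxel tumours, against 64.2% to 69.2% in phenelzine and 53.0% to 73.7% in vehicle tumours. The lowest share with nab-paclitaxel alone was just above the highest share with vehicle.

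**Figure D1:**
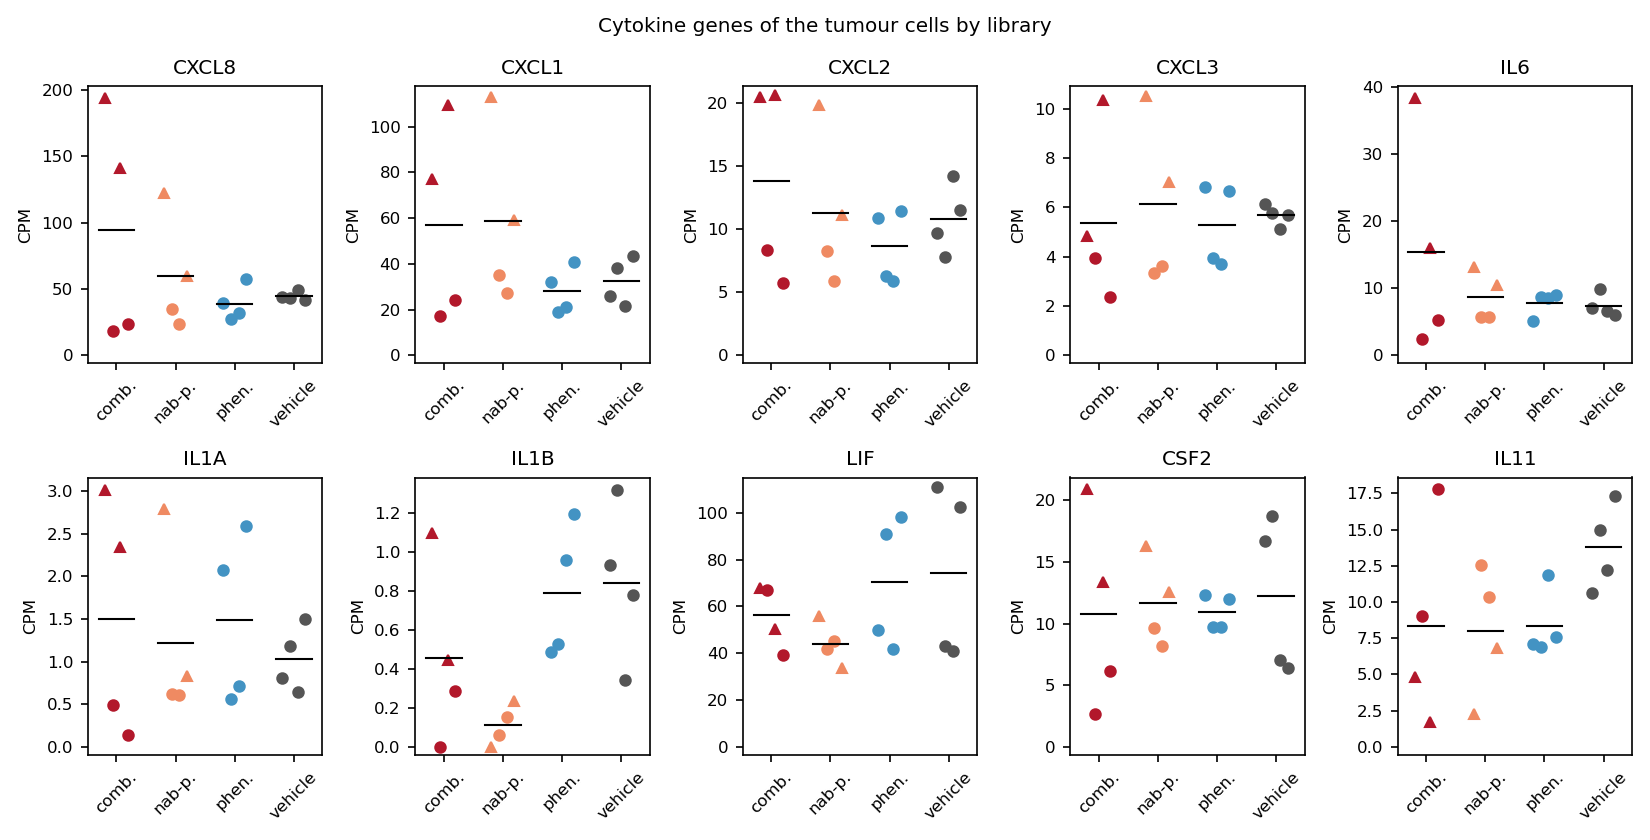
Level of each of the 10 cytokine genes in CPM (linear axes from 0), by group from left to right combination, nab-paclitaxel, phenelzine and vehicle. Each point is 1 tumour, in order of its number, lines are means of 4, and triangles mark combination 1 and 3 and nab-paclitaxel 1 and 4; for CXCL8 the triangles run from 59.7 to 194 CPM, above all other points, and for IL11 from 1.73 to 6.83 CPM, below all others.

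IL6, a gp130 ligand and driver of the acute-phase response, had 38.4, 2.40, 15.95 and 5.20 CPM in combination tumours 1 to 4. It had 13.2, 5.66, 5.64 and 10.5 CPM in nab-paclitaxel tumours, 5.12, 8.67, 8.51 and 8.99 CPM in phenelzine tumours and 7.0, 9.85, 6.57 and 6.02 CPM in vehicle tumours. Combination tumours held both the highest and the lowest value of the series, 16 times apart. The 4 tumours with nab-paclitaxel that did not stand apart were all below the vehicle range. Phenelzine 1, at 5.12 CPM, was below it as well.

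IL11, a gp130 ligand known from bone metastasis of this cell line, was lowest where CXCL8 was highest. It had 4.85, 9.02, 1.73 and 17.8 CPM in combination tumours 1 to 4, and 2.26, 12.5, 10.3 and 6.83 CPM in nab-paclitaxel tumours. It had 7.10, 6.92, 11.8 and 7.56 CPM in phenelzine tumours and 10.6, 14.95, 12.2 and 17.3 CPM in vehicle tumours. The same 4 tumours that were highest in CXCL8 were thus lowest in IL11, and the highest IL11 value of the series, in combination 4, also belonged to a tumour with nab-paclitaxel.

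LIF, which shares gp130 with IL6 and is known for blocking differentiation of stem cells, followed neither pattern. It had 39.4 to 67.7 CPM in combination tumours and 33.9 to 55.8 CPM in nab-paclitaxel tumours, against 42.0 to 98.3 CPM in phenelzine and 40.8 to 111 CPM in vehicle tumours. The 4 highest values, 111 and 102 CPM in vehicle 1 and 4 and 91.0 and 98.3 CPM in phenelzine 2 and 4, were all from tumours without nab-paclitaxel, and the remaining vehicle and phenelzine tumours lay within the range of the tumours given nab-paclitaxel.

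IL1A, the membrane-bound and alarmin form of interleukin 1, was low in all libraries, at 3.02, 0.490, 2.35 and 0.142 CPM in combination tumours 1 to 4. It was at 2.79, 0.625, 0.607 and 0.833 CPM in nab-paclitaxel, 2.07, 0.557, 0.719 and 2.60 CPM in phenelzine and 0.806, 1.19, 0.646 and 1.5 CPM in vehicle tumours. The combination values lay 21.2 times apart, on counts of 4 to 42. Phenelzine tumours also fell into high and low ones, so the spread was not limited to tumours with nab-paclitaxel.

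IL1B, the secreted interleukin 1 that is cut to its active form by caspase-1, had low counts in every library. It had 12, 0, 8 and 8 counts in combination tumours 1 to 4 and 0, 2, 5 and 6 counts in nab-paclitaxel tumours. It had 16, 18, 32 and 36 counts in phenelzine tumours and 29, 30, 9 and 26 counts in vehicle tumours. Scaled to depth these were 1.10, 0, 0.448 and 0.285 CPM with the combination and 0, 0.0625, 0.152 and 0.238 CPM with nab-paclitaxel. They were 0.487, 0.527, 0.959 and 1.20 CPM with phenelzine and 0.935, 1.32, 0.342 and 0.779 CPM with vehicle. Nab-paclitaxel and vehicle tumours did not overlap, while combination 1, the shallowest human library, and combination 3 lay within the vehicle range. For the libraries with a count of 0, 3 counts would equal 0.147 CPM in combination 2 and 0.178 CPM in nab-paclitaxel 1. This would be the upper limit by counting error if low counts were plain tallies of reads, which they are not here.

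CSF2, which encodes GM-CSF, had 20.9, 2.65, 13.4 and 6.16 CPM in combination tumours 1 to 4. It had 8.19 to 16.3 CPM in nab-paclitaxel, 9.70 to 12.3 CPM in phenelzine and 6.35 to 18.7 CPM in vehicle tumours. The highest and lowest values of the series were again both from combination tumours, and within nab-paclitaxel and combination groups the tumours that stood apart were above the others of their group.

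Over the 16 libraries CXCL2, CXCL1 and IL6 were the members most like CXCL8. Ranked by Pearson's r of log2 CPM with CXCL8 among 11577 genes, those with a mean of at least 5 CPM and the members, CXCL2 held rank 9 (r = 0.899), CXCL1 rank 24 (r = 0.888) and IL6 rank 27 (r = 0.883). The most similar gene outside the list, which the files do not pair with a symbol, had r = 0.928. With IL6, CXCL8 held rank 18 and CSF2 rank 188 (r = 0.791). LIF had r = 0.0535 with CXCL8 and IL1B r = 0.196, and IL11 was inverse (r = -0.727). These values describe libraries that share treatment groups, and the 4 that stood apart weigh heavily in them. Over the other 12 libraries the r with CXCL8 was 0.710 for CXCL2, 0.640 for CXCL1, 0.644 for IL6, 0.703 for IL1B, 0.243 for LIF and 0.00591 for IL11. Over the 8 libraries without nab-paclitaxel it was 0.795 for CXCL2, 0.605 for CXCL1, -0.0857 for IL6, 0.226 for IL1B and 0.179 for IL11. The inverse relation of IL11 therefore rested on the 4 libraries, and the low r of IL1B over all 16 was not seen over the 12. Among tumours without nab-paclitaxel IL6 had no positive Pearson's r with CXCL8, while the correlation of ranks (Spearman's rho) was 0.143.

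**Figure D2:**
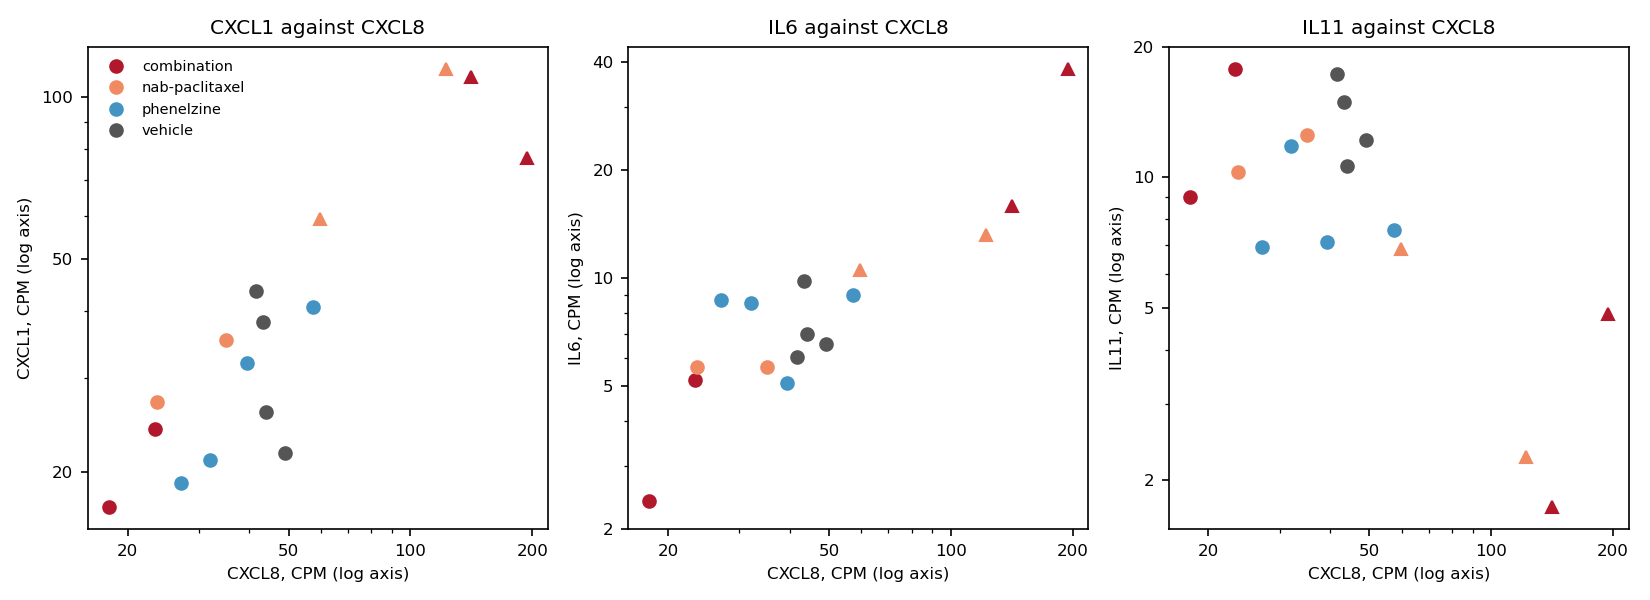
Levels of CXCL1, IL6 and IL11 (vertical, CPM, log axes) against CXCL8 (horizontal, CPM, log axis), with 1 point per tumour coloured by group and triangles for combination 1 and 3 and nab-paclitaxel 1 and 4. The triangles lie to the right of all other points, above them for CXCL1 and IL6 and below them for IL11, between 1.73 and 6.83 CPM. Nab-paclitaxel 4, at 59.7 CPM of CXCL8 and 6.83 CPM of IL11, is close to the other points, which reach 57.4 and 6.92 CPM.

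The first question of the design is what each treatment did relative to vehicle. Fold changes come from edgeR's quasi-likelihood test over all 16 libraries, and p-values are adjusted by Benjamini-Hochberg over all 18131 genes with a threshold of 0.05. For the combination against vehicle 0 of the 10 members passed, by edgeR, DESeq2 or voom, and 0 had an unadjusted p under 0.05, while 0.734% of all genes were called and 22.4% had such a p. CXCL8 averaged 94.3 ± 87.7 CPM with the combination and 44.5 ± 3.18 CPM with vehicle (SD, n = 4 each), and its log2 ratio was 1.08 (SE 0.642, edgeR adjusted p = 0.324). IL6 averaged 15.5 ± 16.4 CPM with the combination and 7.36 ± 1.71 CPM with vehicle, for a log2 ratio of 1.06 (SE 0.600, edgeR adjusted p = 0.301). CXCL1 differed by 0.81 on a log2 scale, with an SE of 0.543 and an edgeR adjusted p of 0.373. The average of CXCL8 was thus 2.11 times that of vehicle, but the combination tumours lay on both sides of the vehicle tumours. IL1B had the lowest log2 value of the members, -0.98 (SE 0.798, edgeR adjusted p = 0.463), and IL11 had -0.71 (SE 0.551, edgeR adjusted p = 0.441). Leaving out combination 1 alone gave 0.47 for CXCL8, 0.11 for IL6 (edgeR adjusted p = 0.930) and -1.76 for IL1B, and leaving out combination 4 alone gave -1.40 for IL11. IL1B had -2.41 without the 4 libraries that stood apart. Without the 4 libraries that stood apart the log2 fold changes of CXCL8, IL6 and CXCL1 were -1.11, -0.94 and -0.64, all short of the threshold. They were also below 0 with the mouse share as a covariate (-0.87, -0.54 and -0.45) and with voom's weights for library quality (-0.44, -0.29 and -0.14).

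For nab-paclitaxel alone against vehicle 0 of 10 members passed in edgeR, where 0.165% of all genes were called. At an unadjusted p under 0.05 there were 2 members, IL1B and LIF, against 20.3% of all genes. DESeq2 called 1 member, IL1B, among 1341 genes in all, and voom 0 members among 599 genes. IL1B averaged 0.113 ± 0.104 CPM with nab-paclitaxel and 0.844 ± 0.404 CPM with vehicle (SD, n = 4 each), and its log2 ratio was -2.78 (SE 0.862, edgeR adjusted p = 0.113; DESeq2 adjusted p = 0.0190). It was the only member whose 2 groups did not overlap, as was the case in 15.1% of all genes. LIF averaged 44.0 ± 9.10 CPM with nab-paclitaxel and 74.4 ± 37.6 CPM with vehicle, for a log2 ratio of -0.76 (SE 0.353, edgeR adjusted p = 0.244). IL11 averaged 7.98 ± 4.48 CPM with nab-paclitaxel and 13.8 ± 2.95 CPM with vehicle, for a log2 ratio of -0.78 (SE 0.550, edgeR adjusted p = 0.438). CXCL1 had the highest value, 0.86 (SE 0.543, edgeR adjusted p = 0.389), but 0.020 with the mouse share as a covariate, 0.29 with voom and -0.050 without the 4 libraries that stood apart. The 10 members had a median log2 fold change of 0.08, against -0.00 over all genes.

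For phenelzine alone against vehicle 0 of 10 members and 0% of all genes passed in edgeR. At an unadjusted p under 0.05 there were 0 members and 2.35% of all genes, and DESeq2 and voom called 0 members, with 5 and 0 genes in all. The log2 fold changes of the members ran from -0.72 for IL11 (SE 0.549, edgeR adjusted p = 1) to 0.52 for IL1A (SE 0.768, edgeR adjusted p = 1). These SEs use a spread shared by all groups, so the wide spread among tumours with nab-paclitaxel enters them. In a fit of phenelzine and vehicle libraries only, IL11 had -0.72 (edgeR adjusted p = 0.935) and 0 members passed. IL11 averaged 8.35 ± 2.34 CPM with phenelzine and 13.8 ± 2.95 CPM with vehicle (SD, n = 4 each), and phenelzine 3, at 11.8 CPM, was within the vehicle range. The 3 treated groups thus had similar IL11 means, all below that of vehicle, and none of these differences passed. Without the 4 libraries that stood apart, which held the 4 lowest IL11 values, the log2 values over vehicle were -0.035 for the combination, -0.27 for nab-paclitaxel and -0.72 for phenelzine. Leaving these libraries out raises the combination and nab-paclitaxel values by construction, so this is a description of where the low values lay.

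**Figure D3:**
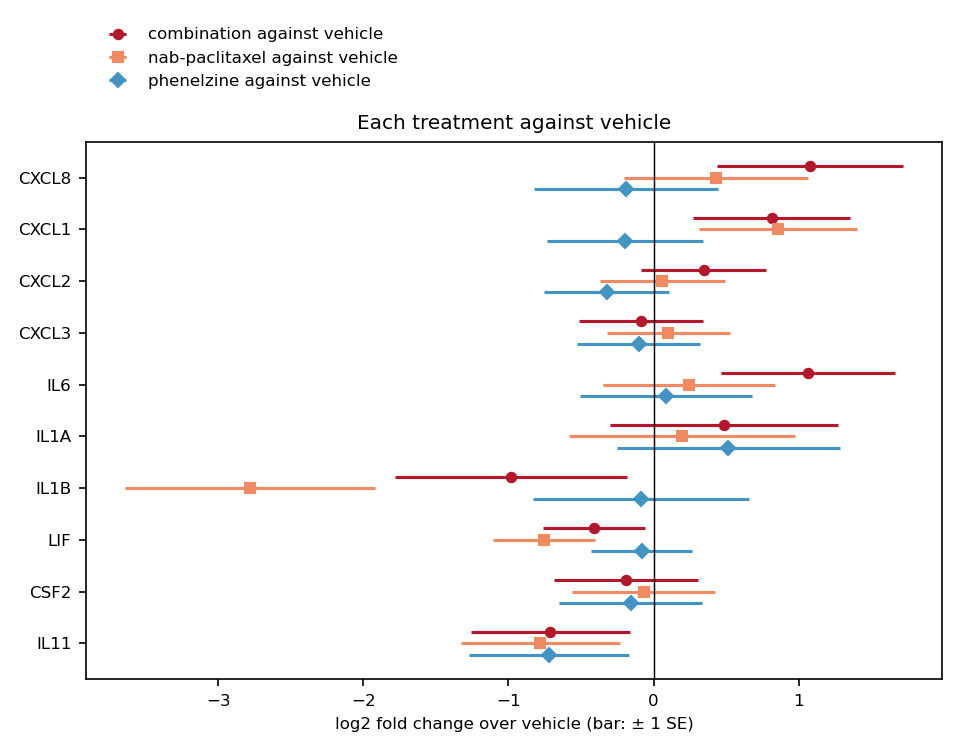
Log2 fold change of each member over vehicle (horizontal), for the combination, nab-paclitaxel and phenelzine from top to bottom within each gene, with bars of 1 SE from edgeR. IL1B with nab-paclitaxel is the farthest from 0, at -2.78, and the values of IL11 are -0.71, -0.78 and -0.72.

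The next questions are what either drug added to the other. For the combination against nab-paclitaxel 0 of 10 members passed in edgeR, DESeq2 or voom, and 0 had an unadjusted p under 0.05, with 0.00552% of all genes called and 2.94% at such a p. The members ran from -0.19 for CXCL3 (SE 0.429, edgeR adjusted p = 1) to 1.80 for IL1B (SE 0.901, edgeR adjusted p = 1), and the counts of IL1B in these groups were 12 or fewer. IL1B had 1.0 without combination 1, 0.51 without the 4 libraries that stood apart and 0.63 with voom. For the combination against phenelzine 0 of 10 members passed by the same 3 tools, with 0 at an unadjusted p under 0.05, against 2.27% of all genes called and 23% at such a p. CXCL8 averaged 94.3 ± 87.7 CPM with the combination and 39.0 ± 13.3 CPM with phenelzine (SD, n = 4 each), and its log2 ratio was 1.27 (SE 0.644, edgeR adjusted p = 0.250). CXCL1 had 1.01 (SE 0.545, edgeR adjusted p = 0.280) and IL6 0.97 (SE 0.598, edgeR adjusted p = 0.340). Without combination 1 CXCL8 had 0.66 and IL6 0.013. Without the 4 libraries that stood apart CXCL8, CXCL1 and IL6 turned to -0.91, -0.45 and -1.03, and with the mouse share as a covariate to -1.03, -0.54 and -1.01; with voom they had -0.18, 0.15 and -0.40. IL1B had the lowest, -0.89 (SE 0.796, edgeR adjusted p = 0.514), and -1.68 without combination 1 and -2.32 without the 4 libraries. The comparisons share groups, so their values are not independent of each other. For the interaction of the 2 drugs, which asks whether their joint effect differs from the sum of both on the log scale, 0 of 10 members and 0% of all genes passed in edgeR. At an unadjusted p under 0.05 there were 0 members and 3% of all genes; DESeq2 called 0 members of 12 genes and voom 0 of 0. The members ran from -0.23 for IL1A (SE 1.10, edgeR adjusted p = 1.0) to 1.89 for IL1B (SE 1.16, edgeR adjusted p = 1.0). IL1A had -1.52 and IL1B 0.60 without the 4 libraries that stood apart. Without combination 1 they had -0.81 and 1.08, and without nab-paclitaxel 1 IL1A had 0.57.

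Nab-paclitaxel averaged over phenelzine given or not set 8 tumours against 8. Of the members 0 rose and 1 fell, where 11.2% of all genes rose and 6.07% fell, 17.3% in all. An unadjusted p under 0.05 was found for 3 members, CXCL1, IL1B and LIF, and for 34.8% of all genes. IL1B fell to 0.285 ± 0.362 CPM with nab-paclitaxel, against 0.818 ± 0.349 CPM without (SD, n = 8 each), and its log2 ratio was -1.84 (SE 0.586, edgeR adjusted p = 0.0436). The groups overlapped, with combination 1 and 3 above vehicle 3. The call rested on low counts and on nearly every library. It held in 3 of the 16 fits with 1 library left out, those without combination 1, combination 2 or vehicle 3, and it ended in the other 13. Over all 16 of these fits the edgeR adjusted p ran between 0.0270 and 0.0849 and the log2 fold change between -2.22 and -1.60. With the mouse share as a covariate its log2 fold change was -2.48 (edgeR adjusted p = 0.265), and without the 4 libraries that stood apart -2.62 (edgeR adjusted p = 0.0643), so that in both the call ended and the fold moved further from 0 by over 1.5 times. DESeq2 called 2 members, IL1B and CXCL1, among 4314 genes in all, and voom called IL1B among 2290.

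The chemokines and IL6 did not pass in this average. CXCL1 differed by 0.93 on a log2 scale, with an SE of 0.385 and an edgeR adjusted p of 0.101, on means of 57.8 ± 38.3 CPM with and 30.2 ± 9.60 CPM without nab-paclitaxel (SD, n = 8 each), and passed in DESeq2 with an adjusted p of 0.0497. CXCL8 had 0.85 (SE 0.452, edgeR adjusted p = 0.191), IL6 0.61 (SE 0.421, edgeR adjusted p = 0.312), CXCL2 0.36 (SE 0.306, edgeR adjusted p = 0.412) and CXCL3 0.06 (SE 0.302, edgeR adjusted p = 0.902). Among the remaining members LIF had -0.54 (SE 0.249, edgeR adjusted p = 0.136), with 50.1 ± 12.6 CPM in treated and 72.3 ± 31.0 CPM in other tumours. IL11 had -0.38 (SE 0.388), CSF2 -0.05 (SE 0.349) and IL1A 0.08 (SE 0.549), with edgeR adjusted p-values of 0.501, 0.933 and 0.928. Without the 4 libraries that stood apart IL11 had 0.21, CSF2 -0.88 and IL1A -1.51, and with the mouse share as a covariate 0.36, -0.90 and -1.93, all short of the threshold. Counts were simulated at these library sizes, with changes put into a small random set of the genes. In this average edgeR called 60% of the 2-fold and 84% of the 4-fold changes, in a fit of 17776 genes. Each gene was drawn on its own, so no split of libraries was shared between genes as in the data. The rates are thus not those of the members.

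The direction of the chemokine and IL6 values depended on the 4 libraries that stood apart. With these left out, 4 tumours with nab-paclitaxel were set against 8 without, and 1.66% of 18408 genes were called. CXCL8 then differed by -0.76 on a log2 scale, with an SE of 0.192 and an edgeR adjusted p of 0.0788. The 4 tumours given nab-paclitaxel, at 18.0 to 35.1 CPM, were all below the vehicle range. Phenelzine 2 and 3, at 27.1 and 32.0 CPM, lay within the range of these 4, so the groups compared overlapped. IL6 had -0.70 (SE 0.235, edgeR adjusted p = 0.165), CXCL3 -0.73 (SE 0.217, edgeR adjusted p = 0.127), CXCL2 -0.45 (SE 0.239, edgeR adjusted p = 0.384) and CXCL1 -0.25 (SE 0.241, edgeR adjusted p = 0.670). With all 16 libraries and the mouse share as a covariate CXCL8 had -0.88 (edgeR adjusted p = 0.556), and with voom -0.21 (adjusted p = 0.713). Of the 10 members 0 passed in the fit without the 4 libraries. Leaving out libraries with high chemokine values lowers these averages by construction, and it shapes their SE and p as well. The SE of CXCL8 was 0.452 with all 16 libraries, against 0.192 without the 4. The highest mouse shares, 71.2%, 59.7% and 55.9% in combination 1, nab-paclitaxel 1 and combination 3, went with the highest CXCL8 values, 194, 122 and 142 CPM. Combination 2 had the lowest CXCL8, IL6 and CXCL1 values of all 16 libraries at a mouse share of 47.4%. That share was above that of nab-paclitaxel 4, which stood among the high ones at 41.9%. Beyond the covariate, the part of the mouse share was not tested. In bulk tumours a change in RNA per cell and a change in the make-up of the human cells cannot be told apart. How reads were divided between species was not given, so mouse reads counted as human were not tested for either.

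**Figure D4:**
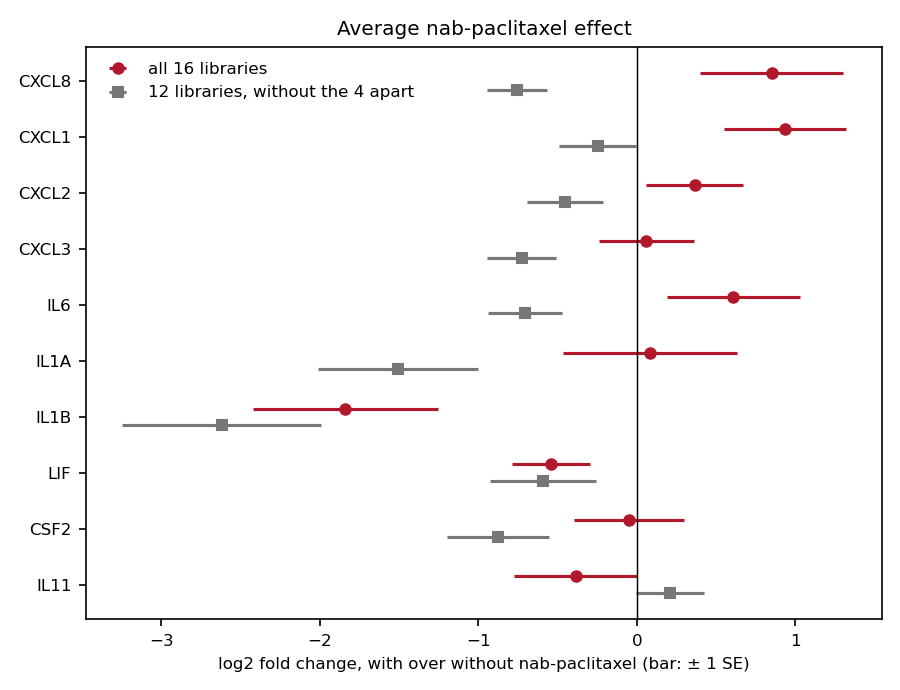
Log2 fold change of each member with over without nab-paclitaxel (horizontal, bars of 1 SE from edgeR), over all 16 libraries (circles) and over the 12 left without combination 1 and 3 and nab-paclitaxel 1 and 4 (squares). CXCL8 is at 0.85 with all libraries and at -0.76 without the 4, and IL1B is at -1.84 and -2.62.

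For phenelzine averaged over nab-paclitaxel given or not, 0 of 10 members and 0% of all genes passed in edgeR. At an unadjusted p under 0.05 there were 0 members and 2.20% of all genes, and DESeq2 and voom called 0 members, with 8 and 0 genes in all. IL1B had the highest log2 value, 0.86 (SE 0.580, edgeR adjusted p = 1.0; 0.21 without the 4 libraries that stood apart), and IL11 the lowest, -0.33 (SE 0.388, edgeR adjusted p = 1.0).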

How the data were processed

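Human and mouse genes were counted in 16 libraries, 1 per tumour. The deposited files are 1 human and 1 mouse matrix of whole-number counts by gene, made by the authors. Per the labels' protocols the libraries were made from tumour mRNA for paired-end reads. The submitters' processing notes list Trimmomatic 0.36, HISAT2 2.04, Picard, StringTie and edgeR, together with hg38 and mm10. The notes give no order of steps. The use of strand, the annotation and the way reads were divided between species were not given in the sources used here. Small human values are unevenly filled (14483 entries of 1, 24107 of 2, 24309 of 3 and 10534 of 4), so low counts are no plain tally of reads.

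The 10 members, the other lists and the comparisons were chosen with earlier results of these data known. All 10 members were to be named. The IDs are paired with no symbols in the files or in the reference table (0 matched), so the other cytokine, receptor and NF-κB genes, the cell type markers and the host orthologs listed for this work were not analysed here; member names came with the list. Whether the human counts carry tumour-cell markers was therefore not tested.

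Human counts were fitted with edgeR 4.0.16 in R 4.3.3 (TMM, default filter with a minimum count of 10, 1 mean per group over 16 libraries, 12 residual degrees of freedom, quasi-likelihood F test); SE is the fold change over the square root of F. Averages of each drug's effect were fitted as contrasts. The test was checked on simulated counts. Alternatives were DESeq2 1.42.0, voom with quality weights (limma 3.58.1), other scaling and filters, the mouse share as a covariate, only the groups compared, a replicate block and leaving out libraries. Libraries of a group differed far beyond counting noise (chi-square per degree of freedom at least 43.8). The p-values measure the spread between single-tumour libraries. A test of spread within groups, tried after the values were seen, was dropped because its calls changed when single libraries were left out; spread is given as values only.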

Additional observations from a re-analysis of the deposited data

Results flagged for a closer look

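In 3 of the 40 groups of 4 tumours, 1 tumour lay far from the other 3 of its group for a member; chance alone gives about 1 in 20. IL6 in phenelzine 1 was low, at 5.12 CPM, with the others at 8.51 to 8.99 CPM. IL1A in nab-paclitaxel 1 was high, at 2.79 CPM, with the others at 0.607 to 0.833 CPM. IL11 in phenelzine 3 was high, at 11.8 CPM, with the others at 6.92 to 7.56 CPM.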

How the results depend on the processing

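The counts of members past the threshold stayed at 0 for the 5 comparisons of 2 groups, for phenelzine on average and for the interaction under every alternative run, leave-one-out fits included, except that DESeq2 called 1 member for nab-paclitaxel against vehicle. In the fits of only the 2 groups compared, IL1B had no value for nab-paclitaxel against vehicle or for the combination against nab-paclitaxel. Those counts therefore leave IL1B out. For nab-paclitaxel on average the count of 1 became 2 with DESeq2 and 0 with no filter, with the mouse share as a covariate, with the replicate block and without the 4 libraries that stood apart; leaving out 1 library gave 0 to 2, with 2 without combination 2. The causes were not tested. Over all genes this comparison had 3131 calls, against 34 with the covariate, 305 without the 4 libraries, 1855 without nab-paclitaxel 1, 1979 without nab-paclitaxel 4, 1881 without combination 3 and 4909 without combination 2. Calls for the combination against phenelzine numbered 412 and ran from 1 to 1727, for the combination against vehicle 133 and from 0 to 1459, for nab-paclitaxel against vehicle 30 and from 0 to 1341, and for the combination against nab-paclitaxel 1 and from 0 to 12.

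Fold changes under the alternatives were followed for every member in nab-paclitaxel on average, and elsewhere for a few members only. In nab-paclitaxel against vehicle these were CXCL1, IL1B, LIF and IL11. In the combination against vehicle they were CXCL8, CXCL1, IL6, IL1B and IL11. Turns of sign in members not followed are not given. Among those followed, log2 fold changes that turned their sign, all short of the threshold, were as follows. With voom, the combination against vehicle gave CXCL8 -0.44, CXCL1 -0.14 and IL6 -0.29, and against phenelzine CXCL8 -0.18 and IL6 -0.40; nab-paclitaxel on average gave CXCL8 -0.21, CXCL2 -0.21, CXCL3 -0.47, IL6 -0.23 and IL1A -1.15. With the mouse share as a covariate, the combination against vehicle gave CXCL8 -0.87, CXCL1 -0.45, IL6 -0.54 and IL11 0.023, and against phenelzine CXCL8 -1.03, CXCL1 -0.54 and IL6 -1.01; nab-paclitaxel on average gave CXCL8 -0.88, CXCL1 -0.26, CXCL2 -0.64, CXCL3 -0.85, IL6 -0.77, IL1A -1.93 and IL11 0.36. Without the 4 libraries that stood apart, the combination against vehicle gave CXCL8 -1.11, CXCL1 -0.64 and IL6 -0.94, and against phenelzine CXCL8 -0.91, CXCL1 -0.45 and IL6 -1.03; nab-paclitaxel against vehicle gave CXCL1 -0.050, and on average CXCL8 -0.76, CXCL1 -0.25, CXCL2 -0.45, CXCL3 -0.73, IL6 -0.70, IL1A -1.51 and IL11 0.21. With 1 library left out the sign turned for CXCL3 in the combination against nab-paclitaxel (-0.73 to 0.21), for CXCL3 (-0.20 to 0.20), IL1A (-0.30 to 0.31) and CSF2 (-0.30 to 0.13) with nab-paclitaxel on average, and for IL1A in the interaction (-0.81 to 0.57).

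Numbers shared between groups gave no consistent pairing of the libraries: 4 of 24 same-number pairs had a correlation over 0.1 and 6 of 16 libraries correlated best with their own number. Between nab-paclitaxel and combination the correlation was 0.504 and 0.569 for numbers 1 and 2, and -0.432 and -0.256 for numbers 3 and 4. Pairing was described in this way and not tested. With the replicate block IL1B with nab-paclitaxel on average had a log2 fold change of -1.92 (edgeR adjusted p = 0.0618), IL1A had -0.077, and IL1A in the interaction 0.10; calls over all genes were 2834 for nab-paclitaxel on average, 10 for the combination against vehicle and 97 for the combination against phenelzine. IL1B rests on 0 to 36 counts a library. Host orthologs were not analysed here.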
